A study of Mus musculus with 12 samples.

Results

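The neurotrophins and the GDNF family are secreted survival and growth factors, and the genes described here are 3 of these ligands (Bdnf, Ntf3 and Gdnf) and 5 of their receptors (Ntrk2, Ntrk3, Ngfr, Gfra1 and Gfra2). These 8 genes were picked by gene symbol from the 33024 symbols of the deposited count table, by a rule that reads no expression value. RNA came from the cortex of 12 wildtype C57BL/6 mice, 1 library per mouse, in 2 groups. The 7 Control mice, whose treatment label is Vehicle, were offered water in both bottles. The 5 EtOH mice chose between water and 20% (v/v) ethanol in a two-bottle drinking-in-the-dark paradigm (2BC-DID), with 12 h of access per session over 35 sessions from 30 days of age, and the tissue was from the arm that then abstained for 14 days. The groups carried no transgene or deletion, and both went through the same behavioural tests before the tissue was taken. All 8 genes passed the filter on low counts, among 16059 genes tested.

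As background, BDNF binds the receptor tyrosine kinase TrkB, made by Ntrk2, and neurotrophin-3, made by Ntf3, binds TrkC, made by Ntrk3. The p75 receptor, made by Ngfr, binds all neurotrophins and, with sortilin, their unprocessed precursors. GDNF signals through the kinase RET once it is held by GFRα1, a receptor anchored in the membrane by a lipid tail and made by Gfra1, while GFRα2, made by Gfra2, prefers neurturin. In the forebrain, Bdnf is made mainly by excitatory neurons, Ntf3 is known for its strong expression in the hippocampal dentate gyrus, and Gdnf is known from striatal interneurons.

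After abstinence from ethanol, 1 of the 8 genes was higher and 2 were lower in the cortex samples. Striatum and hippocampus markers differed between the same samples as well, as given below. Ntf3 rose 4.27-fold, Gdnf fell from a mean of 1.18 to 0.0583 CPM (counts per gene scaled to library depth), and Gfra2 decreased by 33.7%. Genes were called at an adjusted p under 0.05 (edgeR's quasi-likelihood test, Benjamini-Hochberg over all genes tested) together with a log2 fold change of more than 0.5 up or down. By this rule 3 of 8 genes were called (37.5%), beside 1331 of all genes tested (8.29%). Of the 3, Gdnf passed the filter through the Control mice alone, where it is high, with 0 EtOH mice at the filter level. The share is therefore given as a description. Called higher were 4.2% of all genes, and called lower 4.09%. Without the minimum fold change, the same 3 genes had an adjusted p under 0.05, as had 23.7% of all genes. The groups did not overlap for 2 of the 8, Ntf3 and Gdnf, beside 9.81% of all genes. The median log2 fold change of the 8 was -0.03, beside 7.21e-05 over all genes tested.

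The DNA upstream of the canonical transcript of the 3 called genes is shown because they are the genes that differed between the groups. Each is the 250 bases before the start of the Ensembl canonical transcript (genome build GRCm39), 5′ to 3′ on the gene's strand, and capitals mark a GC box (GGGCGG).
Ntf3: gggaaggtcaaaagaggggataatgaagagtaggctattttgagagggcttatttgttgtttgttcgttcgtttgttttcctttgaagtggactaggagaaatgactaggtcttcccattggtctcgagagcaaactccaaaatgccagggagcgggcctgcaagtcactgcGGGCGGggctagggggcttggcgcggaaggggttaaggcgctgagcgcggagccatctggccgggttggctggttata
Gdnf: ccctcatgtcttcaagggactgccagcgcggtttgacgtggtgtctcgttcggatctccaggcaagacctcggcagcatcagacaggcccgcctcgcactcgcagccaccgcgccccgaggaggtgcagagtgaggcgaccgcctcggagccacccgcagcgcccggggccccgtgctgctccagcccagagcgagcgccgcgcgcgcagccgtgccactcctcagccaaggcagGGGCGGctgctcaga
Gfra2: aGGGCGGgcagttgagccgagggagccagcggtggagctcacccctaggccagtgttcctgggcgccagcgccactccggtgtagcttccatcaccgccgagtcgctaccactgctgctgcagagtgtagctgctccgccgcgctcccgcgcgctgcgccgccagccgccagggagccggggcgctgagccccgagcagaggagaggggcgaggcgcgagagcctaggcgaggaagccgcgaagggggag
These windows lie at chr6:126141947-126142196 on the minus strand for Ntf3, at chr15:7840077-7840326 on the plus strand for Gdnf and at chr14:71127222-71127471 on the plus strand for Gfra2. The GC box sits 78 to 73 bases before the start of Ntf3, 15 to 10 before that of Gdnf and 249 to 244 before that of Gfra2. GC content was 53.6% for Ntf3, 71.2% for Gdnf and 72.8% for Gfra2. Of 21757 windows of the same length at protein-coding genes, 36.3% hold a GC box. The other motifs searched on both strands were the CRE (TGACGTCA, in 1.7% of windows), the AP-1 site (TGANTCA, 6.18%), the E-box CACGTG (6.26%), the EGR site (GCGNGGGCG, 4.48%) and the TATA box (TATAAA, 11.9%), and these letters are in none of the 3 windows. A match to the EGR letters can share bases with a match to the GC box. Other annotated Ntf3 transcripts start further upstream, so the Ntf3 window lies within the gene. It also lies over 2 annotated exons, which were not assigned to a gene here. Gm67883, a noncoding gene on the opposite strand, overlaps exons of Ntf3.

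Among the ligands, Ntf3 (chr6:126078375-126143873, minus strand) gave 8 to 40 counts in the Control mice, with a median of 16. The EtOH mice 1 to 5 gave 157, 57, 105, 52 and 60 counts. On the CPM scale the Control mice ranged from 0.253 to 1.01, with a median of 0.501. Mouse EtOH 1 had 3.64 CPM, EtOH 2 had 1.77, EtOH 3 had 3.13, EtOH 4 had 1.58 and EtOH 5 had 1.82. All 5 EtOH mice lay above all 7 Control mice, with EtOH 1 and EtOH 3 the highest. Mean levels were 0.560 ± 0.315 CPM (SD, n = 7) and 2.39 ± 0.931 CPM (SD, n = 5), and the fitted log2 fold change was 2.07 (SE 0.33, adjusted p = 0.000209, edgeR). The exact two-sided permutation test over mice gave p = 0.00253 without adjustment, where the smallest p the design allows is 0.00126. Summed over mice, 431 counts stood against 134, a depth-scaled ratio of 4.27 with a 95% interval of 3.51 to 5.22 that covers counting error only. Reads from the noncoding antisense gene Gm67883, whose exons overlap those of Ntf3, cannot be told apart from its own, since the strand setting of the counting is not given in the sources used here.

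Gdnf (chr15:7840327-7867060, plus strand) was below 2 CPM in every mouse. The Control mice gave 30 to 52 counts, with a median of 34. Mouse EtOH 1 gave 10 counts, EtOH 3 gave 2, and EtOH 2, EtOH 4 and EtOH 5 gave 0. No EtOH mouse reached the lowest Control mouse, and 3 of 5 had no read on the gene. In CPM the Control mice ranged from 0.938 to 1.59 (median 1.08), while EtOH 1 had 0.232 and EtOH 3 had 0.0596. Where the count was 0, the limit that 3 counts set was at most 0.0933 CPM in any EtOH library. Mean levels were 1.18 ± 0.273 CPM (SD, n = 7) and 0.0583 ± 0.1004 CPM (SD, n = 5), and the adjusted p was 2.88e-05 (edgeR). Pooled counts were 274 and 12, so that the Control level was 17.2 times the EtOH level at equal depth (95% counting interval 9.70 to 33.7). The fitted log2 fold change of -4.07 (SE 0.53) depends on the prior count added to 0 and is no bound. Gdnf passed the filter, set at 0.310 CPM in at least as many libraries as the smaller group holds, through its 7 Control mice alone, with 0 EtOH mice above that level, so that its p is no independent support and the counts themselves carry the difference. Without mouse EtOH 1, which held 10 of the 12 counts, the fitted value was -5.96.

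Bdnf (chr2:109505045-109557475, plus strand), the best known activity-dependent neurotrophin of cortex, was not called. Its level ranged from 22.9 to 34.6 CPM in the Control mice (median 27.6). The EtOH mice had 31.9, 25.8, 27.3, 25.5 and 36.9 CPM. The groups overlapped, and only EtOH 5 lay above every Control mouse. Means were 27.8 ± 4.10 CPM (SD, n = 7) and 29.5 ± 4.89 CPM (SD, n = 5), with a log2 difference of 0.08 (95% interval -0.14 to 0.31, adjusted p = 0.612, edgeR). The interval leaves room for a difference of either sign, but none as large as the 0.5 minimum. The difference was 0.016 without the deepest library of each group, 0.031 with the replicate block and -0.012 without mouse EtOH 5. Bdnf has a noncoding gene on the opposite strand, Gm45346, that overlaps its exons.

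**Figure D1:**
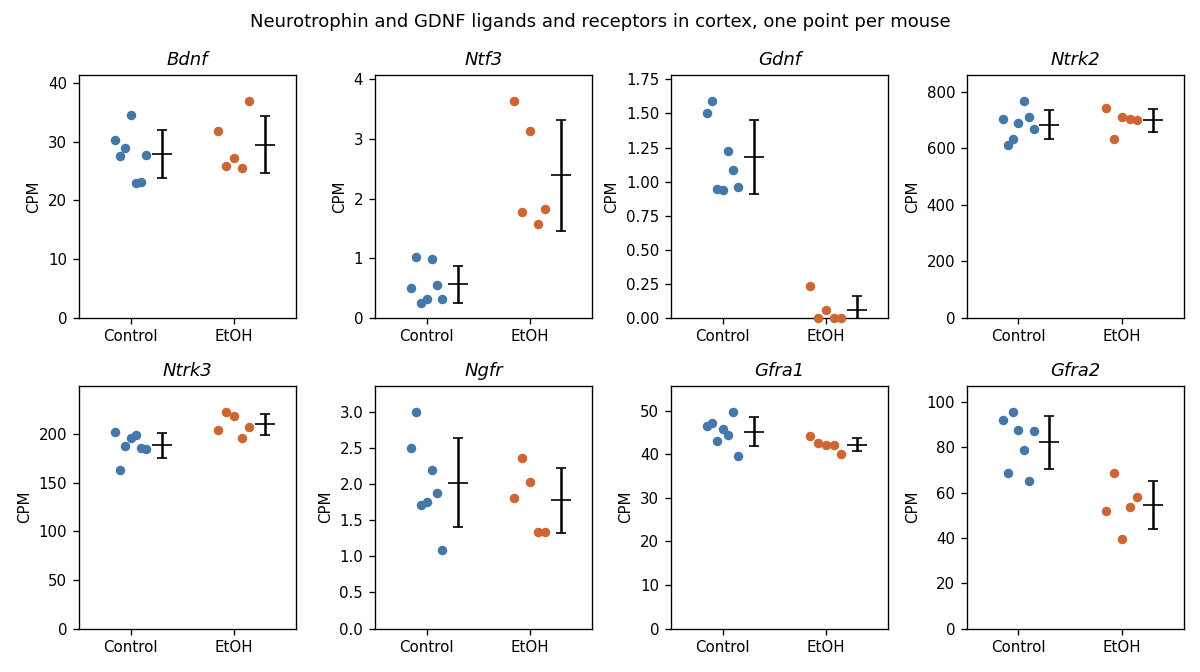
Level of each of the 8 genes in CPM (y axis, from 0) in Control (blue, n = 7) and EtOH (orange, n = 5) mice, 1 point per mouse, with the mean and SD as a black bar beside the points, ending at the axis for Gdnf in EtOH. The 5 EtOH mice sit above all 7 Control mice for Ntf3 and below all of them for Gdnf, 4 of 5 sit below for Gfra2, and the groups overlap for the rest.

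Of the neurotrophin receptors, Ntrk2 (chr13:58954176-59281784, plus strand), the TrkB gene, had the highest CPM of the 8. It ranged from 611.4 to 767.5 CPM in the Control mice (median 687.7), and the EtOH mice had 743.2, 632.9, 711.2, 703.0 and 701.2 CPM. Every EtOH mouse lay within the Control range. The log2 difference was 0.03 (95% interval -0.09 to 0.16, adjusted p = 0.727, edgeR), between means of 682.8 ± 52.0 (SD, n = 7) and 698.3 ± 40.3 CPM (SD, n = 5).

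Ntrk3 (chr7:77825707-78387760, minus strand), the gene of the NT-3 receptor TrkC, had the smallest adjusted p among the 5 genes not called. The Control mice ranged from 163.2 to 202.1 CPM (median 187.6). The EtOH mice had 204.2, 222.9, 218.1, 196.2 and 207.1 CPM. All EtOH mice but EtOH 4 were above every Control mouse. The means were 188.1 ± 12.95 CPM (SD, n = 7) and 209.7 ± 10.75 CPM (SD, n = 5), and the log2 difference was 0.16 (SE 0.06, 95% interval 0.04 to 0.27). Its adjusted p was 0.0519 (edgeR) and its unadjusted exact permutation p was 0.0101. Over 20 other settings the adjusted p ran from 0.0316 (DESeq2) to 0.170 (replicate block) and was under 0.05 in 6, and in each the difference stayed below the minimum of 0.5. Ntrk3 has a noncoding gene on the opposite strand (Gm9885) that overlaps its exons.

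Ngfr (chr11:95459638-95478561, minus strand), the gene of the p75 receptor, was low in both groups. Its level was 1.09 to 3.00 CPM in the Control mice (median 1.88), from 34 to 98 counts. The EtOH mice had 1.81, 2.37, 2.03, 1.34 and 1.34 CPM. All 5 were inside the Control range, and the log2 difference was -0.19 with a wide 95% interval of -0.66 to 0.29 (adjusted p = 0.580, edgeR). A decrease of the minimum size lies within that interval. Ngfr also varied between mice, with a coefficient of variation of its counts of 33.8% in Control and 27.2% in EtOH.

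Of the GDNF family receptors, Gfra2 (chr14:71127472-71217280, plus strand) was lower in the EtOH mice. The Control mice ranged from 65.0 to 95.8 CPM, with a median of 87.1. Mouse EtOH 1 had 52.1 CPM, EtOH 2 had 68.7, EtOH 3 had 39.7, EtOH 4 had 53.8 and EtOH 5 had 58.1. EtOH 2 was inside the Control range, and the other 4 were below every Control mouse. Means were 82.2 ± 11.75 CPM (SD, n = 7) and 54.5 ± 10.5 CPM (SD, n = 5), and the log2 fold change was -0.59 (SE 0.12, 95% interval -0.84 to -0.35, adjusted p = 0.00147, edgeR). The exact permutation p was 0.00505 without adjustment. Mouse EtOH 3 was the lowest, and without it the log2 fold change was -0.50 with an adjusted p of 0.00353, just short of the minimum fold change. A noncoding gene on the opposite strand, Gm34588, overlaps its exons.

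Gfra1 (chr19:58223212-58444346, minus strand), the gene of the receptor that holds GDNF itself, was not called. It ranged from 39.5 to 49.8 CPM in the Control mice (median 45.9), and the EtOH mice had 44.2, 42.7, 42.2, 42.1 and 39.98 CPM. All EtOH values fell within the Control range. Means were 45.2 ± 3.27 CPM (SD, n = 7) and 42.2 ± 1.52 CPM (SD, n = 5), and the log2 difference was -0.10 (95% interval -0.22 to 0.02, adjusted p = 0.235, edgeR). The unadjusted exact permutation p was 0.0998, and it was 0.00866 without mouse Control 7, the Control mouse with the lowest Gfra1 level. Exons of Gfra1 overlap those of 2 genes on the opposite strand, Gm16277 and Gm41876.

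**Figure D2:**
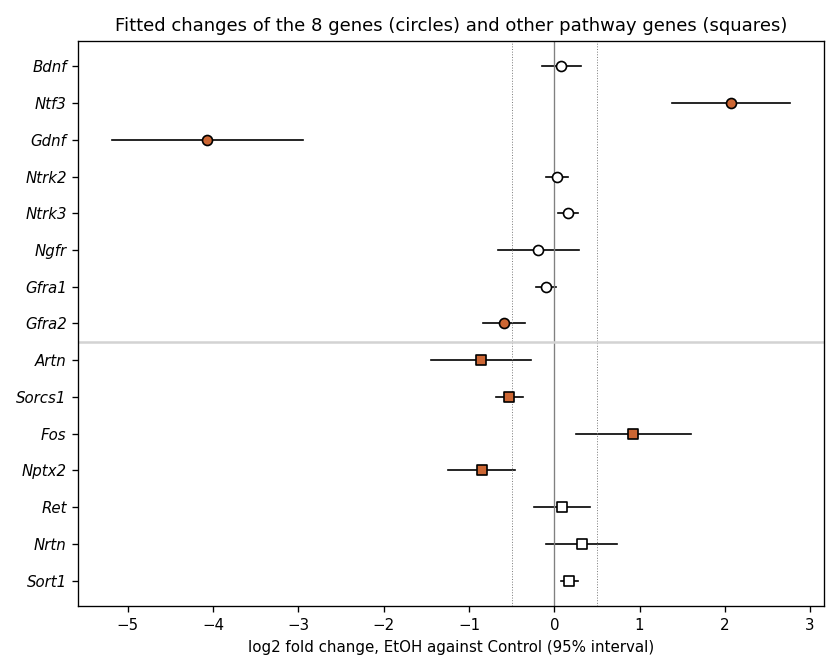
Fitted log2 fold change of EtOH against Control (x axis) for the 8 genes (circles) and 7 other genes of the pathway (squares), with 95% intervals as lines and the minimum of 0.5 in either direction dotted, filled orange where called. Ntf3 stands at 2.07 and Gdnf at -4.07, while Bdnf, Ntrk2 and Gfra1 lie within 0.10 of 0.

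Per length, the 8 genes spread over a wide range of levels. Counts scaled for library depth and exon length (RPKM) were taken over the union of annotated exons, and the following are levels on that scale. In the Control mice Ntrk2 (22.8 ± 1.74 RPKM, SD, n = 7) and Gfra2 (22.4 ± 3.21) came first and overlapped, followed by Gfra1 (7.10 ± 0.514) and Ntrk3 (6.00 ± 0.413), which also overlapped. Bdnf came next (3.67 ± 0.540) and stood apart from both neighbours. Ngfr (0.585 ± 0.179), Ntf3 (0.322 ± 0.181) and Gdnf (0.320 ± 0.0742) came last, each overlapping its neighbour. On this scale every receptor but Ngfr was above every ligand in the Control mice.

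In the EtOH mice the order differed at several places. Ntrk2 (23.3 ± 1.35 RPKM, SD, n = 5) and Gfra2 (14.9 ± 2.87) no longer overlapped, and Ntrk3 (6.69 ± 0.343) and Gfra1 (6.63 ± 0.238) still did. Bdnf stood at 3.88 ± 0.644 RPKM, Ntf3 at 1.375 ± 0.536, Ngfr at 0.514 ± 0.129 and Gdnf at 0.0159 ± 0.0273, each apart from its neighbours. The union of exons is long for Ntrk2 (29922 bases) and Ntrk3 (31340 bases), which have many transcripts. With the length of the canonical transcript, chosen as an alternative after seeing the data, Ntrk2 stood at 75.5 RPKM in Control and 77.2 in EtOH, well above Gfra2, Gfra1 and Bdnf overlapped in both groups, and Ntrk3 came before Gfra1 in the Control mice and Bdnf before Gfra1 in the EtOH mice.

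Ratios of counts within a library do not depend on its depth and are given as a description. The ratio of Gfra2 to Gfra1 was 1.305 to 2.22 in the Control mice and 0.939 to 1.61 in the EtOH mice. The ratio of Ntf3 to Bdnf was 0.00872 to 0.0427 in the Control mice and 0.0494 to 0.115 in the EtOH mice, without overlap. Bdnf thus outnumbered Ntf3 in each of the 12 mice. The Ntf3 to Gdnf ratio lay below 1 in every Control mouse, from 0.267 to 0.8, and was 15.7 and 52.5 in the 2 EtOH mice that had Gdnf counts. Ntrk3 to Ntrk2 was 0.259 to 0.297 in the Control mice and 0.275 to 0.352 in the EtOH mice, with overlap.

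The rest of the pathway was read from lists by role, 61 genes of which 57 were tested. Of these, 5 were called (8.77%), 1 higher and 4 lower, a share near the 8.29% of all genes, and 22 (38.6%) had an adjusted p under 0.05 without the minimum fold change, beside 23.7% of all genes. Among other ligands 1 of 3 tested was called, Artn, the gene of the GDNF family ligand artemin. Artn was lower at 0.538 ± 0.0726 CPM (SD, n = 5) against 0.982 ± 0.394 (SD, n = 7), a log2 fold change of -0.86 (SE 0.28, adjusted p = 0.0329, edgeR), on 15 to 54 counts. This call held in 12 of 20 other settings and in 6 of the 12 that left out 1 mouse. Nrtn, the gene of neurturin and so of the ligand that GFRα2 prefers, was at 1.63 and 2.05 CPM (log2 0.32, SE 0.20, adjusted p = 0.256, edgeR). Ntf5 (0 to 13 counts per mouse) and Pspn (2 to 15) were below the filter.

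Among other receptors and co-receptors 2 of 8 tested were called, both lower, of which 1 is described here. Sorcs1, a sorting receptor related to sortilin, was at 47.6 ± 3.22 CPM (SD, n = 7) and 33.0 ± 3.94 CPM (SD, n = 5), with all 5 EtOH mice below the Control range (log2 fold change -0.53, SE 0.07, adjusted p = 6.86e-05, edgeR), a change that lost the minimum fold without mouse EtOH 3. Sort1, the gene of sortilin, was at 661.9 ± 35.8 and 748.0 ± 16.1 CPM with all 5 EtOH mice above the Control range, but its log2 difference of 0.18 (SE 0.05, adjusted p = 0.0124, edgeR) was under the minimum. Ret, the shared kinase of the GDNF family, was at 3.59 CPM in Control and 3.82 in EtOH (log2 0.09, SE 0.16, adjusted p = 0.703, edgeR). Gfra3 and Gfral, with 0 to 4 counts each, were below the filter.

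None of 8 genes of proneurotrophin processing and secretion, of 20 Trk and Ret adaptors and signalling partners, or of 7 p75 partners was called, and their median log2 fold changes were 0.16, 0.07 and -0.03. Of 11 feedback and activity-linked target genes, 1 was called higher and 1 lower. Fos, an immediate early gene, was at 30.6 ± 14.5 CPM (SD, n = 7) and 58.4 ± 29.1 CPM (SD, n = 5), which gave 0.92 on the log2 scale (SE 0.32, adjusted p = 0.0440, edgeR). The Fos groups overlapped, with 3 of 5 EtOH mice above the Control range, and the call held in 10 of 20 other settings. Nptx2, which codes for a secreted synaptic pentraxin and responds to activity, was at 79.8 ± 22.7 CPM (SD, n = 7) and 44.2 ± 10.5 CPM (SD, n = 5). Its log2 fold change was -0.85 (SE 0.19, adjusted p = 0.00322, edgeR), with 3 of 5 EtOH mice below the Control range, and it was called in 20 of 20 settings. The Control mice were uneven, with Control 1 to 4 at 93.2 to 103.2 CPM and Control 5, 6 and 7 at 50.4, 55.3 and 62.8 CPM. EtOH 4 and EtOH 5, at 51.3 and 58.3 CPM, lay among these lower Control values.

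**Figure D3:**
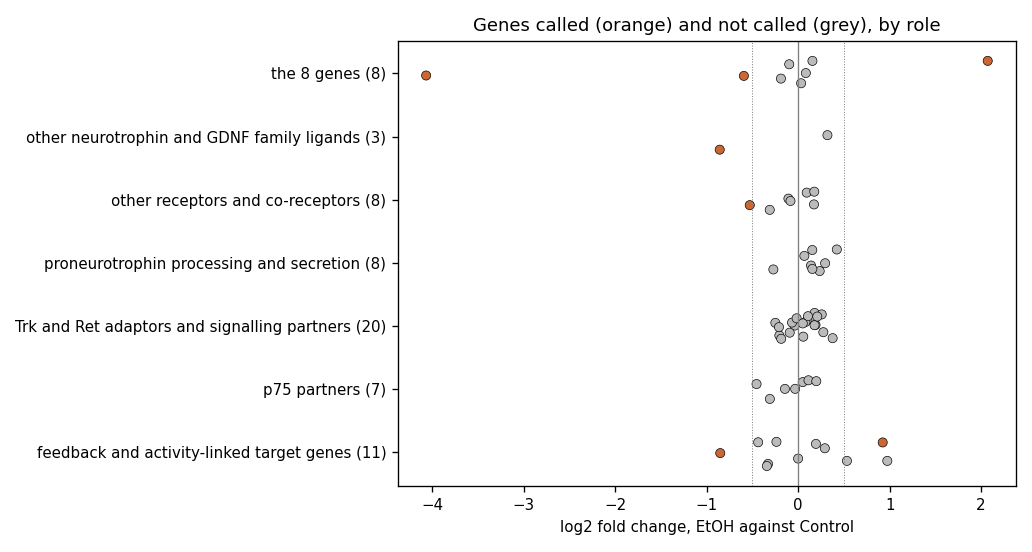
Log2 fold change of EtOH against Control (x axis) for the tested genes of the 8 and of the 6 pathway lists, by role (y axis, number tested in brackets, 2 of them not drawn), orange where called and grey where not, with dotted lines at the minimum of 0.5. The called genes lie among ligands, receptors and target genes, and the rows of processing genes, adaptors and p75 partners hold no called gene.

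Tissue and cell type markers differed between the groups as well, and their values stand here beside those of the 8 genes. The lists were chosen with earlier results of these data known, so the counts of called markers are a description. Of all genes tested, 4.09% were called lower and 4.2% higher. All 15 striatum markers were called lower, with a summed level of 1454 to 3139 CPM in the Control mice and 355.2 to 409.5 CPM in the EtOH mice. All 10 hippocampus markers were called higher, summing to 45.8 to 60.9 and 198.1 to 285 CPM. Of these, Iyd averaged 0.0854 CPM in Control and 0.657 CPM in EtOH, so it needed the EtOH mice to pass the filter at 0.310 CPM. All 5 cholinergic neuron markers were called lower, summing to 9.11 to 30.6 and 0.954 to 2.02 CPM, with Lhx8 at 0 in every EtOH mouse. Chat, Slc18a3, Isl1 and Lhx8 averaged 0.236, 0.271, 0.098 and 0 CPM in EtOH, so they needed the Control mice to pass the filter. As for Gdnf, the p-values of these genes and of Iyd are no independent support. Ntf3 moved in the direction of the hippocampus markers, and Gdnf and Gfra2 in that of the striatum and cholinergic markers. Among the Control mice, Control 2 and Control 6 had the highest striatum scores (mean log2 CPM 6.95 and 6.725). Their Gfra2 levels, 68.6 and 65.0 CPM, were the lowest in Control. Control 7 had the lowest striatum score (5.744) and a Gfra2 level of 87.1 CPM. The part of these markers in the result of each gene was not tested. In bulk tissue, fewer cells of a type and less RNA per cell cannot be told apart, and the regional make-up of each sample was not measured. The choroid plexus markers were called higher in 4 of 6 tested (7.70 to 21.9 against 11.6 to 990 CPM summed), with wide spread among the EtOH mice.

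The 8 markers of cortical excitatory neurons were all detected in both groups, at means from 14.7 CPM (Slc17a6) to 3670 CPM (Camk2a) in the Control mice, and they did not move in 1 direction. Slc17a7, a vesicular glutamate transporter, was at 1955 ± 144.1 CPM (SD, n = 7) and 1906 ± 223 CPM (SD, n = 5). Slc17a6, another such transporter, was the 1 marker called, and was higher (log2 fold change 1.08, adjusted p = 8.34e-06, edgeR). Below the minimum fold change but with an adjusted p under 0.05 (edgeR) were Tbr1 (log2 -0.40, adjusted p = 0.00222), Neurod2 (0.36, adjusted p = 0.00189) and Neurod6 (0.26, adjusted p = 0.0286). Over the 10 lists other than those of striatum, hippocampus, cholinergic neurons and choroid plexus, 16 of 81 markers tested were called (19.8%), beside 8.29% of all genes. Besides that of the excitatory neurons, they were 2 lower of 8 upper layer markers, 2 higher and 3 lower of 10 deep layer markers, 1 lower of 6 thalamus markers, 1 lower of 7 interneuron markers and 1 higher of 8 astrocyte markers. A further 2 of 9 oligodendrocyte markers, 1 of 8 microglia markers and 1 of 9 endothelial and mural cell markers were lower, and 1 of 8 meningeal and vascular fibroblast markers was higher. For 3 of these lists the scores (the mean log2 CPM of a list) did not overlap between the groups. The interneuron score was 6.04 to 6.22 in the Control mice and 5.90 to 6.03 in the EtOH mice, the microglia score 4.87 to 5.14 and 4.70 to 4.80, and the astrocyte score 7.64 to 7.80 and 7.81 to 7.89. Their part in the levels of the 8 genes was not tested.

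**Figure D4:**
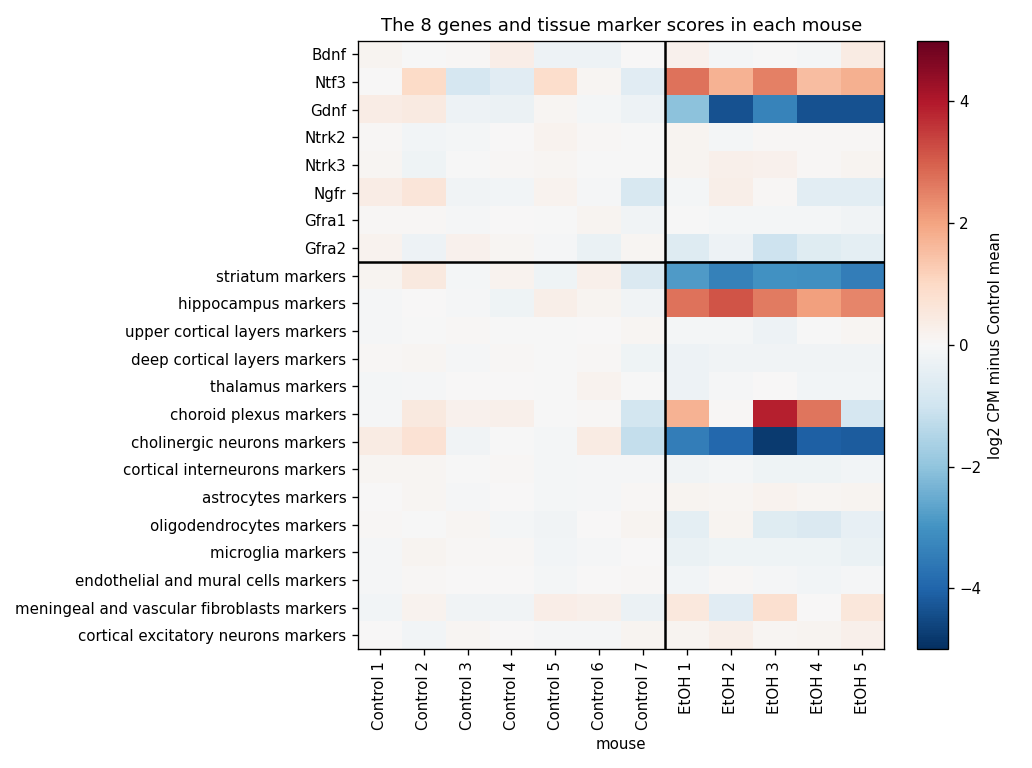
Difference from the Control mean in log2 CPM (colour, red above and blue below) for the 8 genes and for the mean of each of 14 marker lists (y axis) in each of the 12 mice (x axis, Control left of the black line). Ntf3 and the hippocampus markers are red in all 5 EtOH mice, Gdnf, the striatum markers and the cholinergic markers are blue in all 5, and Bdnf and Ntrk2 are close to white throughout.

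The genes nearest to each called gene over the 12 mice, by the root mean square difference of log2 CPM centred on each gene's mean, were these. For Ntf3 they were Best3 (0.350), Igsf1 (0.466) and Gpr161 (0.512). For Gdnf they were Penk (0.449), Sh3rf2 (0.565) and Slc35d3 (0.599), of which Penk, the proenkephalin gene, is one of the striatum markers. For Gfra2 they were Lamp5 (0.115), Smim43 (0.122) and Tspan5 (0.134), of which Lamp5 is one of the upper layer markers and was called lower itself (log2 fold change -0.51).

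Depth was similar in most mice. Total counts ran from 31768076 to 42183029 per library, and scaling factors from 0.982 to 1.02. Control 5 and EtOH 1 were deeper than the rest of their groups, and without both the same 3 of the 8 genes were called. No library was a repeat of another of its own group by a chi-square statistic over the 31 within-group pairs, the lowest being 7.76 per degree of freedom. Pairs between the groups were not compared.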

How the data were processed

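Cortex RNA of 12 mice was sequenced by BGI. The authors checked the reads with FastQC 0.11.9, aligned them to GRCm39 with STAR (annotation named as Gencode Release 28), counted them on genes with featureCounts and compared groups with DESeq2. Strand and multimapping settings are not given in the sources used here. The authors deposited expected counts per gene symbol, without normalization. 61 symbols held values that were not whole, and all counts were rounded. 0 columns of samples were left unmatched.

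Genes were filtered with filterByExpr, scaled by TMM and compared with edgeR 4.0.16 (quasi-likelihood test, limma 3.58.1, R 4.3.3, Benjamini-Hochberg over all genes tested). Exact two-sided permutation tests over mice used log2 CPM with a prior count of 2 and were not adjusted. The fit was tested on simulated data. The labels number the samples within a group, each was taken as 1 mouse, and p-values measure the spread between these samples. Positions and lengths are from Gencode vM39 of GRCm39, which is later than the annotation used for the counting.

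Named genes were the 8 themselves, every called gene of the pathway lists, Ntf5, Ret, Nrtn and Sort1, and the 3 genes nearest to each called gene, with Pspn, Gfra3 and Gfral named as the others below the filter. A few listed genes that this rule selects are counted in their lists but not reported here. The genes and lists were chosen with earlier results of these data known. Alternatives were DESeq2 1.42.0, limma voom, other scalings, filters and fold minimums, a replicate block, and leaving out each mouse or the deepest library of each group. Intervals on pooled counts cover counting error only.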

Additional observations from a re-analysis of the deposited data

Results flagged for a closer look

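By Dixon's gap test, in which chance alone picks about 1 in 20 groups, 5 of 64 groups of values held a sample far from the others, where 3.2 would be by chance. None was a level of the 8 genes. The total count of Control 5 was 40690223, with the next at 32356913, and that of EtOH 1 was 42183029, with the next at 33313165. The deep cortical layer score (mean log2 CPM) was lowest in EtOH 1 at 5.081, next to 5.15. The choroid plexus score was lowest in Control 7 at -0.441, next to 0.437. The astrocyte score was highest in EtOH 3 at 7.89, next to 7.833.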

How the results depend on the processing

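Ntf3 was called in 19 of 19 other settings (log2 fold change 1.87 to 2.27) and Gdnf in 19 of 19 (-5.96 to -3.79). Requiring at least 10 counts in every mouse removed both from the test, which left 1 of the 8 genes called. Gfra2 was called in 19 of 20 (-0.70 to -0.50, the range also when 1 mouse was left out), the exception being without EtOH 3. A minimum log2 fold change of 1 left 2 of the 8 genes called, without Gfra2. The log2 difference of Gfra1 in the permutation test was -0.13 to -0.071 when 1 mouse was left out, and its exact p was under 0.05 only without Control 7 (0.00866). Of the wider pathway, 5 genes were called, 3 with limma voom, 22 with no minimum fold change, 1 with a minimum of 1, and 2 to 6 when 1 mouse was left out (3 without Control 2, Control 4 or EtOH 4, and 2 without EtOH 3). Over all genes, 674 higher and 657 lower calls became 1947 and 1863 with no minimum fold change, and 242 and 282 with a minimum of 1. Replicate numbers are shared between the groups but name different mice, and deviations of same-numbered mice correlated at -0.108 to 0.018 over 5 pairs. With the replicate block, 3 of the 8 genes were called, with log2 fold changes of 1.98 (Ntf3), -4.36 (Gdnf) and -0.65 (Gfra2), and of the wider pathway Artn lost its call and Vgf gained one. Differences in genes below about 1 CPM rest on few counts, and the 0 counts of Gdnf allow levels of up to 0.0933 CPM.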
